A study of Oryctolagus cuniculus with 8 samples.

Results

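The comparison described here asks what differs in the retina when lard and cholesterol are added to a diet already rich in sucrose. It sets the 2 retinas of the HFSD group against the 2 retinas of the HSD group, 4 of the 8 libraries of the study, and the libraries were taken by their diet labels alone. All rabbits were wild-type males of the Chinchilla strain, aged 12 to 16 weeks when they were taken in, and each diet lasted 6 months. The age listed for every library was 10 months. The HSD was standard chow with 40% sucrose. The HFSD was the same chow with sucrose at 35%, lard at 10% and cholesterol at 0.5%, so that the diets differ slightly in sucrose as well as in fat. The other 4 libraries came from rabbits on standard chow (ND) and on chow with the same lard and cholesterol but no added sucrose (HFD). They entered the statistics through the spread between replicates and the choice of genes tested. The fat effect without sucrose is given from them where it is set beside the main one. Total RNA of whole dissected retinas was sequenced, and levels are in FPKM, a count of fragments corrected for gene length and sequencing depth. The labels do not say whether the 2 retinas of a diet came from separate rabbits, so p-values measure only the spread between these retinas. In whole tissue, fewer cells of a type and less RNA per cell cannot be told apart.

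The retina takes most of its energy from glucose, much of it through glycolysis that ends in lactate, and its photoreceptors renew membranes rich in long polyunsaturated fatty acids. Cholesterol reaches it both from its own synthesis and from lipoproteins in the blood, across the pigment epithelium and the retinal vessels, and cells with ample sterol are known to shut down the genes of sterol synthesis and uptake. In the rabbit, the myelinated axons of ganglion cells and the astrocytes among them lie together in a band beside the optic disc, while the rest of the retina holds neither.

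The 4 libraries held between 15764577 and 22785832 fragments, as recovered from the FPKM steps. Their rod photoreceptor genes summed to 51204 to 55976 FPKM in each, so the retina label held in all 4. A pair of these libraries stood apart. HSD replicate 2 held RNA of skeletal muscle genes. HFSD replicate 2 held more RNA of myelin genes than the other 3, and more of GFAP, the filament protein of astrocytes, which was at 3.05 and 69.5 FPKM in the HFSD retinas against 2.37 and 1.08 in the HSD retinas. MBP, a structural protein of myelin, stood at 4.02 and 41.9 against 4.34 and 4.16. The astrocyte and gliosis genes as a list were not highest there, with sums of 1409.8 and 1005 in HSD and 1193 and 1253 in HFSD.

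The muscle genes were set apart first. A gene was placed in this set when it reached at least 1 FPKM in HSD replicate 2 and at least 8 times the highest of the other 7 libraries, a choice made by the values themselves and therefore given without a test. The rule took 67 protein-coding genes, 58 of them with a symbol, and 10 of the 67 passed the filter on low values. MYL1, a myosin light chain of fast muscle, stood at 0 and 141 FPKM in the HSD retinas and at 0.0506 and 0 in the HFSD retinas. ACTA1, the actin of the sarcomere, stood at 0.224 and 105 and at 0.619 and 0.224. CKM, the creatine kinase of muscle, was at 0 and 57.1 and at 0.178 and 0. Each was therefore near 0 in the HFSD retinas and in the other HSD retina alike. Of the next highest, TNNC2, the troponin C of fast muscle, had 0 and 77.8 FPKM in HSD and was at 0 in HFSD. TCAP, a protein of the sarcomere's Z-disc, had 5.66 and 69.7 FPKM in HSD and 5.41 and 6.49 in HFSD. ATP2A1, the calcium pump of fast muscle, had 1.34 and 62.1 FPKM in HSD and 0.84 and 0.453 in HFSD. In all of these genes HSD replicate 2 stood far above the other 3, and in ATP2A1 HSD replicate 1 also lay above both HFSD retinas.

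The set took 25318 fragments in HSD replicate 2, 0.151% of those on genes, and between 428 and 722 in the other 7 libraries. It also held genes outside the sarcomere, among them DCN, a proteoglycan of connective tissue, at 1.77 and 16.2 FPKM in HSD and 1.8 and 0.789 in HFSD (log2 fold change -1.62, and -0.31 without HSD replicate 2). Of 41 entries found for a list of skeletal muscle genes, HSD replicate 2 was the highest of all 8 libraries in 39. The median log2 fold change of the 19 tested members was -1.37, and it was 0.031 without HSD replicate 2. At the edge of the set, PLN and CASQ2, genes of the muscle's calcium store, were just inside at 8.22 times the highest other library, and ACTC1, the actin of heart muscle, was just outside at 7.62 times. PYGM, the glycogen phosphorylase of muscle, at 3.5 and 17.9 FPKM in HSD and 3.41 and 1.05 in HFSD, and CASQ1, a calcium-binding protein of the same store, at 4.32 and 15.7 FPKM in HSD and 2.3 and 2.53 in HFSD, lay outside the set and did not overlap between the diets, yet both were far higher in HSD replicate 2 than in replicate 1. Both were among the 15 lower genes with the largest log2 fold changes, at -1.62 ± 0.64 for PYGM and -1.46 ± 0.47 for CASQ1, which were -0.58 and -0.64 without HSD replicate 2.

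**Figure D1:**
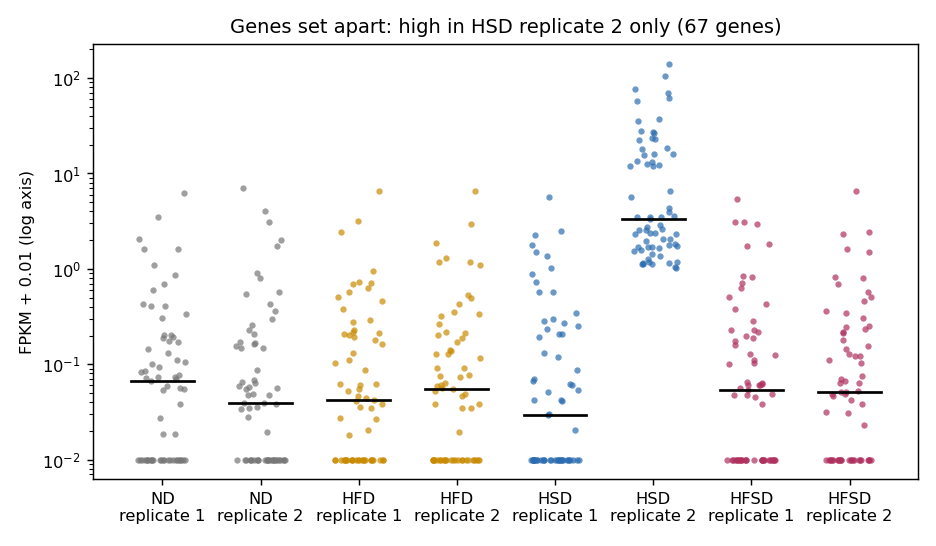
FPKM plus 0.01 on a log axis for the 67 genes set apart, in each of the 8 libraries (points are genes, bars are medians, and points at the bottom are at 0). Every gene stands above 1 FPKM in HSD replicate 2, while the 2 HFSD retinas and HSD replicate 1 look like the ND and HFD retinas.

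Of 12204 protein-coding genes tested with limma on log2(FPKM + 1), none passed an adjusted p of 0.05 between HFSD and HSD in either direction (0.0% higher and 0.0% lower, Benjamini-Hochberg adjustment), and the lowest adjusted p was 0.63. A weighted count model (limma-voom on recovered fragments) also called 0. Without the adjustment, 335 genes (2.75%) had a p under 0.05, 149 higher in HFSD (1.22%) and 186 lower (1.52%), fewer than the 5% that the threshold allows where nothing differs. This shortfall was not seen in a fit on the 4 libraries alone, which gave 299 higher and 342 lower. In all 335 the HFSD and HSD retinas did not overlap, but that held in either direction for many more genes, since the 2 HFSD retinas both lay above the 2 HSD retinas in 18.5% of genes tested and below them in 16.2%. These shares are the background for every count of non-overlapping genes given below. Of the 335, 51 stayed under that p whichever of the 4 retinas was left out. The median log2 fold change over all genes tested was 0.0083. The values below are therefore differences in level with their standard errors, and none is a gene called as changed.

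**Figure D2:**
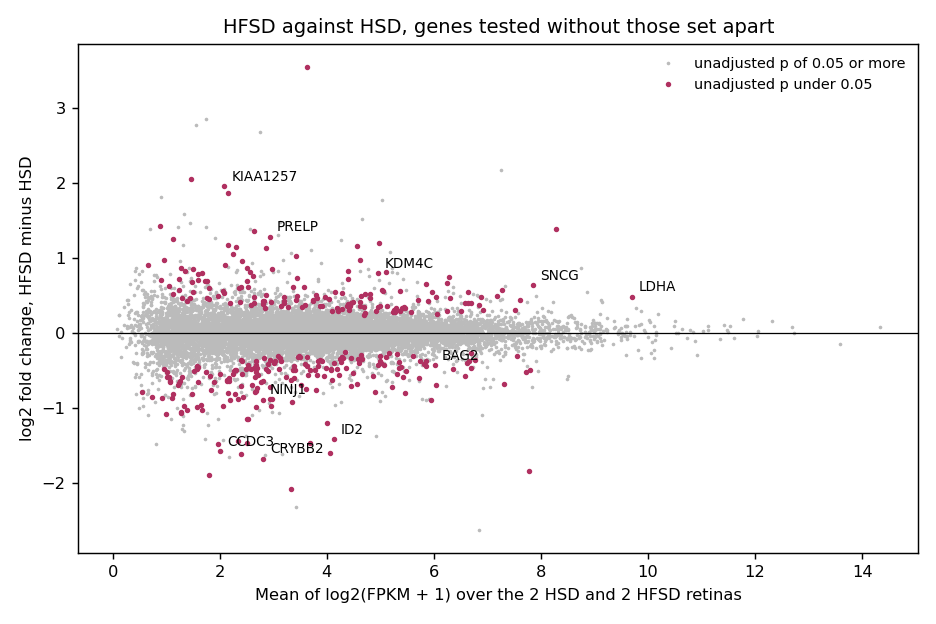
The log2 fold change (HFSD minus HSD, vertical axis) against the mean of log2(FPKM + 1) over the 4 retinas (horizontal axis) for the genes tested, without those set apart. Points in colour have an unadjusted p under 0.05 and none passed the adjustment. PRELP and KDM4C are among the higher genes, and CRYBB2, ID2 and NINJ1 among the lower.

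Among genes with a symbol, the lowest p belonged to PRELP, a leucine-rich proteoglycan that anchors basement membranes to connective tissue. It stood at 4.43 and 3.43 FPKM in HSD and 10.5 and 11.3 in HFSD, a log2 fold change of 1.28 ± 0.17 (SE, limma, adjusted p = 0.63), and the means were 3.93 ± 0.71 FPKM in HSD against 10.9 ± 0.559 in HFSD (s.d., n = 2 each). Both HFSD retinas lay far above both HSD retinas, and the change stayed within 1.14 to 1.43 with each retina left out. KDM4C, a demethylase of histone H3, was at 23.8 and 21.1 FPKM in HSD and 41.1 and 38.6 in HFSD, with a log2 fold change of 0.80 ± 0.12 and a range of 0.72 to 0.88 with each retina left out (limma, adjusted p = 0.63). The ND retinas had 35.8 and 31.4 FPKM of KDM4C and the HFD retinas 36.1 and 38.6, so both HSD retinas lay under the other 6. S100A13, a small calcium-binding protein that takes part in the release of growth factors, was at 2.7 and 3.84 FPKM in HSD and 6.64 and 6.74 in HFSD (0.86 ± 0.21). Both diets lay far under the 28.4 and 38.7 FPKM of the ND retinas.

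VCAM1, the adhesion molecule that captures leukocytes on endothelium, was at 4.06 and 1.16 FPKM in HSD and 6.58 and 6.11 in HFSD (1.15 ± 0.35), with much of its spread between the HSD retinas and 0.54 without HSD replicate 2. EDNRB, the endothelin B receptor of glia and vessels, was at 2.41 and 3.3 FPKM in HSD and 5.47 and 7.52 in HFSD (0.96 ± 0.39). APLN, the peptide ligand apelin, was at 1.08 and 0.743 FPKM in HSD and 1.69 and 3.25 in HFSD (0.83 ± 0.27, and 0.50 without HFSD replicate 2), against 2.4 and 2.41 in ND, so both HSD retinas were under both ND retinas as well. In none of these genes did the diets overlap. TIFA, an adaptor of NF-kappaB signalling, had 6.59 and 2.18 FPKM in HSD and 10.6 and 9.09 in HFSD. TRPM8, the cold-sensing ion channel, had 0.991 and 1.23 FPKM in HSD and 2.27 and 3.46 in HFSD. GNB4, a beta subunit of G proteins, had 5.09 and 2.31 FPKM in HSD and 5.93 and 7.91 in HFSD. The log2 fold changes of these were 1.14, 0.86 and 0.81, and in TIFA and GNB4 HSD replicate 2 was the low one of its pair, with 0.51 and 0.37 without it. The rest of the 15 highest were KIAA1257 at 2.08 and 0.513 FPKM in HSD and 10 and 5.32 in HFSD, CLGN (a chaperone best known from the testis), CCDC138, SIAE (a sialic acid esterase), IDNK (a gluconate kinase) and KRTCAP3, with log2 fold changes between 0.85 and 1.95. SIAE was at 0.40 without HSD replicate 1.

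Of the lower genes with a symbol, CRYBB2, a beta crystallin best known from the lens, had the lowest p. It stood at 12.2 and 10.9 FPKM in HSD and 3.85 and 2.19 in HFSD, a log2 fold change of -1.67 ± 0.24 (limma, adjusted p = 0.63) that ran from -1.97 to -1.37 with each retina left out. Its neighbour in the family, CRYBB3, was at 16.1 and 18.1 FPKM in HSD and 12.8 and 7.3 in HFSD (-0.75 ± 0.28, and -0.38 without HFSD replicate 2). Crystallin genes share sequence, and reads that mapped to several places had been discarded, so their levels are uncertain. NINJ1, a membrane protein that ruptures the membrane of dying cells, was at 8.02 and 8.97 FPKM in HSD and 4.4 and 3.87 in HFSD (-0.89 ± 0.14). KCNG4, a modifying subunit of voltage-gated potassium channels, was at 10.4 and 9.04 FPKM in HSD and 5.11 and 4.51 in HFSD (-0.88 ± 0.16). In NINJ1 the HFSD retinas were also under both ND retinas, at 10.7 and 10.2 FPKM.

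ID2, an inhibitor of basic helix-loop-helix factors and a classical target of BMP signals, was at 19.4 and 38.8 FPKM in HSD and 8.7 and 10.8 in HFSD (-1.41 ± 0.37). Its relatives ID1 at 25.3 and 70.6 FPKM in HSD and 20.1 and 24.3 in HFSD and ID3 at 17.8 and 96.8 FPKM in HSD and 25.8 and 22.1 in HFSD were highest in HSD replicate 2, the library with muscle RNA, and ID3 had a log2 fold change of 0.41 without it against -0.78 with it. ID2 kept its direction, from -1.89 to -0.93 with each retina left out. The part of the muscle RNA in the ID values was not tested. CCDC3, a secreted protein of fat and endothelial cells, was at 8.33 and 4.08 FPKM in HSD and 0.932 and 1.77 in HFSD (-1.57 ± 0.41). BATF2, a transcription factor induced by interferon, was at 4.74 and 7.1 FPKM in HSD and 2.26 and 3.26 in HFSD (-0.87 ± 0.23). In both, the HSD retinas differed from each other by more than the gap between the nearest HSD and HFSD retinas.

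Among the remaining lower genes, a pair of linker histones stood together, HIST1H1C at 87 and 78.9 FPKM in HSD and 39 and 50.4 in HFSD and HIST1H1E at 11.3 and 8.56 FPKM in HSD and 3.81 and 5.31 in HFSD, with log2 fold changes of -0.89 and -0.98. These histones are close copies of each other, so reads could be lost or shared between them. KCNJ13, a potassium channel of the pigment epithelium, had 7.62 and 11.4 FPKM in HSD and 6.5 and 3.23 in HFSD (-0.88 ± 0.33, and -0.46 without HFSD replicate 2). MYL9, a myosin light chain of smooth muscle, had 2.42 and 4.57 FPKM in HSD and 1.13 and 1.38 in HFSD (-0.95 ± 0.36), and it was again highest in HSD replicate 2 of these 4, with -0.60 without it. GSTO2, ANKRD34B and RNF32 had log2 fold changes between -0.87 and -0.85, the first 2 at under 3 FPKM throughout, and GSTO2 was at -0.49 without HSD replicate 2. Of the genes without a symbol, given here after their values were seen, one was at 21.6 and 17.9 FPKM in HSD and 5.29 and 2.8 in HFSD (-2.08 ± 0.28). Another was at 2.28 and 2.98 in HSD and 44.4 and 38.1 in HFSD (3.54 ± 1.07), but the 2 ND retinas differed as widely from each other, at 2.26 and 52.2.

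**Figure D3:**
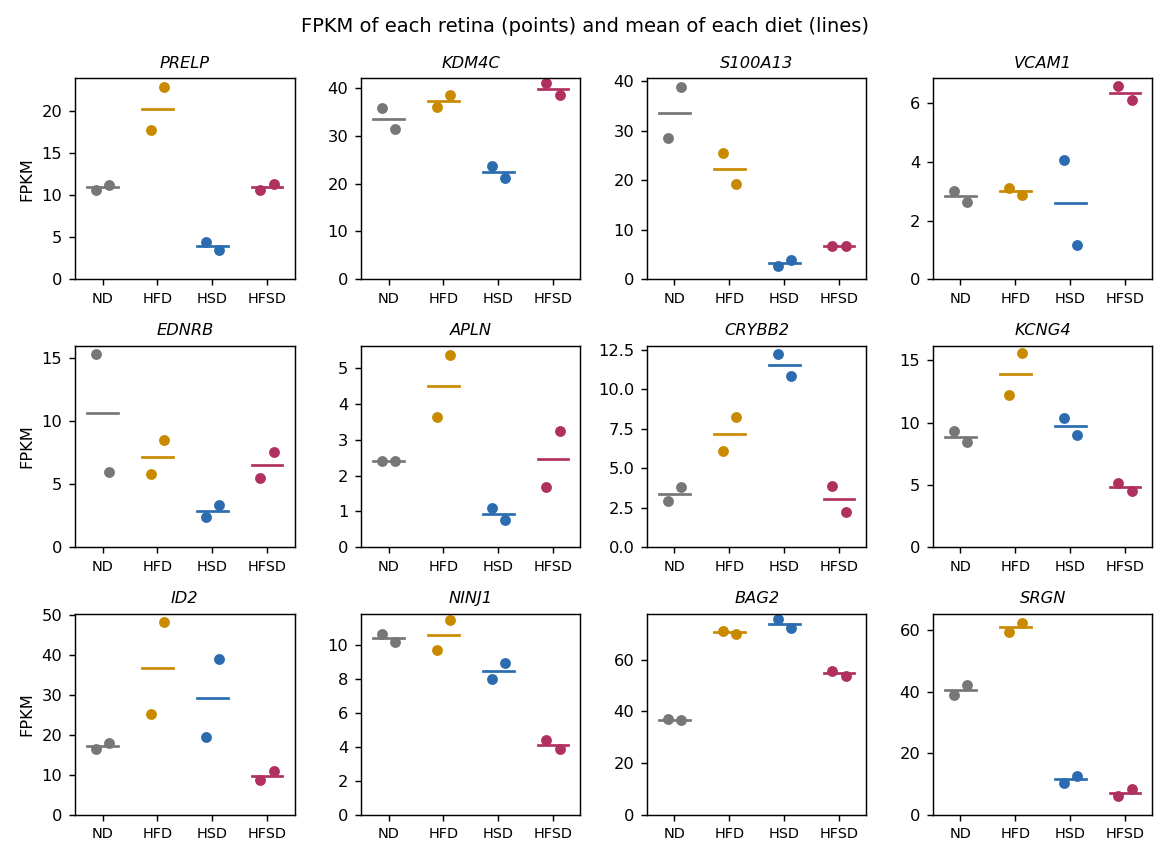
FPKM of 12 genes in every retina of the 4 diets (points are retinas, lines are the means of the 2 retinas, each axis starts at 0). The HSD and HFSD points do not overlap in any panel, while several genes, such as S100A13, EDNRB and SRGN, differ more between other diets than between these.

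Apart from skeletal muscle, the largest median among the 50 lists of functions and cell types belonged to genes of retinal ganglion cells, the output neurons whose axons form the optic nerve. All 15 members tested were higher in HFSD, where 52.4% of all genes tested were, and the 2 HFSD retinas lay above the 2 HSD retinas in 13 of them against 18.5% of all genes. The median log2 fold change was 0.50 (0.39 to 0.58 with each retina left out), beside 0.0083 over all genes, and 2 members had an unadjusted p under 0.05. SNCG, a synuclein abundant in ganglion cells, was at 188 and 179.9 FPKM in HSD and 256 and 321 in HFSD (0.64 ± 0.25). NEFL, the light neurofilament of their axons, was at 137 and 107 FPKM in HSD and 159 and 185 in HFSD (0.50 ± 0.16, and 0.32 without HSD replicate 2). RBPMS, an RNA-binding protein used to mark these cells, was at 14.8 and 15.2 FPKM in HSD and 22 and 24.5 in HFSD (0.60 ± 0.36). In each, both HFSD retinas were above both HSD retinas.

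The transcription factors that specify ganglion cells lay the same way. POU4F1 was at 6.78 and 5.78 FPKM in HSD and 8.89 and 10.1 in HFSD (0.53 ± 0.39), and POU4F3 was at 4.7 and 4.86 FPKM in HSD and 7.61 and 7.78 in HFSD (0.59 ± 0.41). THY1, a surface protein of their membrane, had 141 and 119 FPKM in HSD and 178 and 179.9 in HFSD (0.46 ± 0.28), and SLC17A6, which loads glutamate into their vesicles, had 18 and 16.5 FPKM in HSD and 23.4 and 26.3 in HFSD (0.50 ± 0.37). The lowest of the list were ISL2 at 0.10 and RBPMS2 at 0.25, and OPN4, the photopigment melanopsin, overlapped at 1.01 and 0.821 FPKM in HSD and 0.882 and 2.11 in HFSD. Without HFSD replicate 2, ISL2 was at -0.05 and OPN4 at -0.03. The summed FPKM of the list was 714 and 626 in HSD and 899 and 1027 in HFSD. The retinas of the other diets also spread within a diet, with 1012 and 626 in ND and 972 and 775 in HFD, and this spread is part of the standard errors above. Myelin genes, whose sum was 99.8 and 93.5 in HSD and 110.0 and 213 in HFSD, 833 and 164 in ND and 569 and 419 in HFD, moved with it within each diet, since the retina with more myelin RNA also had the higher ganglion cell sum in all 4. The part of the RNA that came with myelin in the ganglion cell values was not tested, and their median was 0.42 without HFSD replicate 2. For HFD against ND the median of the same genes was 0.034.

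Most genes of glycolysis were also higher, 20 of 23, and 12 of 23 lay above both HSD retinas in both HFSD retinas and 2 below. Their median log2 fold change was 0.15 (0.12 to 0.22 with each retina left out). LDHA, the lactate dehydrogenase subunit that favours lactate, was at 726 and 678 FPKM in HSD and 912 and 1055 in HFSD (0.48 ± 0.18). GPI, which turns glucose 6-phosphate into fructose 6-phosphate, was at 508 and 449 FPKM in HSD and 625 and 674 in HFSD (0.44 ± 0.21). ENO2, the neuronal enolase, was at 577 and 416 FPKM in HSD and 637 and 673 in HFSD (0.42 ± 0.23, and 0.18 without HSD replicate 2). The diets did not overlap in any of these. SLC16A3, a lactate exporter, was at 32 and 17.4 FPKM in HSD and 32.3 and 47.7 in HFSD, close to overlap. GAPDH, a glycolytic dehydrogenase with many processed copies in mammalian genomes, had the largest log2 fold change of the list, 0.86 ± 0.55 and 0.47 without HSD replicate 1, at 241 and 416 FPKM in HSD and 598 and 556 in HFSD, but it had 925 and 542 in ND and 189 and 630.3 in HFD, a wider spread than between HSD and HFSD. The summed FPKM of the list was 11683 and 11291 in HSD and 13285 and 13388 in HFSD.

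**Figure D4:**
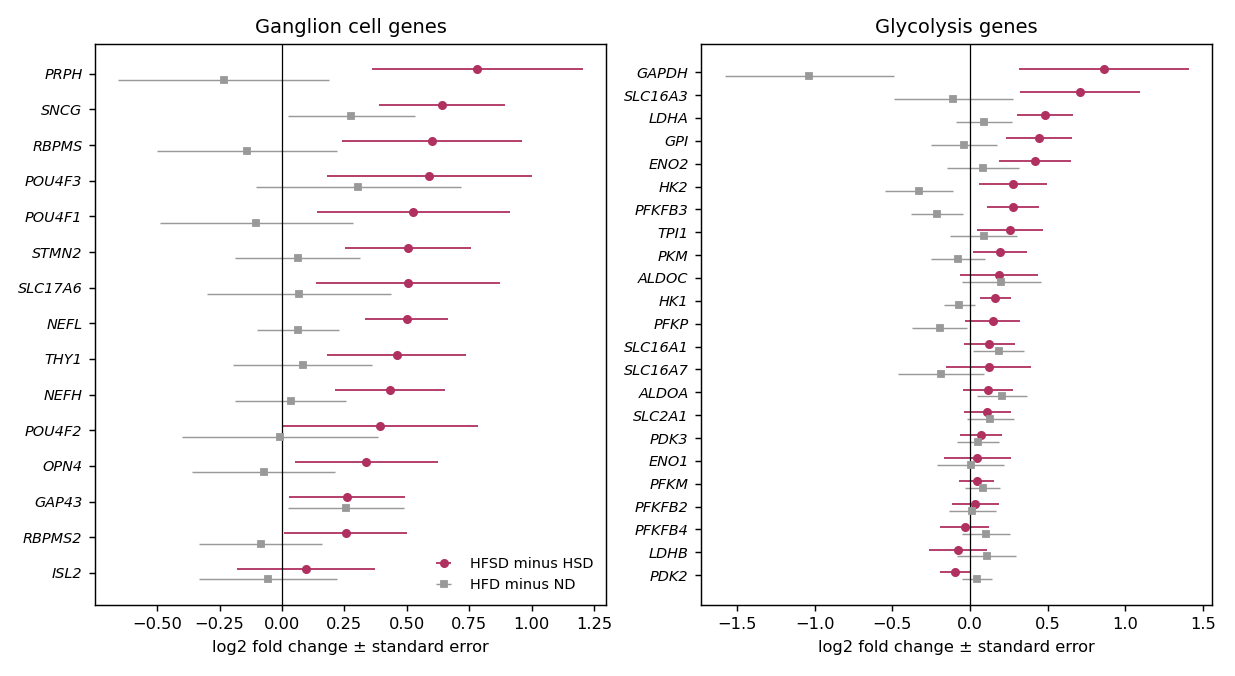
The log2 fold change with its standard error (horizontal axis) of each tested ganglion cell gene (left) and glycolysis gene (right), for HFSD minus HSD (circles) and for HFD minus ND (squares), 2 retinas a diet. All 15 ganglion cell genes lie above 0 for HFSD minus HSD, with a median of 0.50, and scatter around 0 for HFD minus ND.

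Of the 37 nuclear genes of the respiratory chain and ATP synthase, 27 were lower in HFSD, 1 of 37 lay above both HSD retinas in both HFSD retinas and 14 below, and the median was -0.058. None had an unadjusted p under 0.05. The 13 genes encoded in the mitochondrial genome had a median of 0.080 (-0.14 to 0.28 with each retina left out) and summed to 35140.0 and 49515 in HSD and 40895 and 43155 in HFSD, with the widest gap between the HSD retinas. For fructose, polyol and sugar sensing genes the median was -0.033, and 5 of 19 lay above both HSD retinas in both HFSD retinas and 5 below. SORD, which makes fructose from sorbitol, was among the lower ones at 48.6 and 36.4 FPKM in HSD and 31.6 and 23.1 in HFSD (-0.62 ± 0.29, and -0.40 without HFSD replicate 2). Insulin and IGF signalling genes had a median of 0.007, and 2 of 26 lay above both HSD retinas in both HFSD retinas and 4 below.

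The genes of lipid metabolism differed little between the diets. In the list of cholesterol synthesis and uptake 4 of 24 lay above both HSD retinas in both HFSD retinas and 1 below, with a median of 0.039 (-0.002 to 0.15 with each retina left out) and none at an unadjusted p under 0.05. HMGCS1, an early enzyme of sterol synthesis, was at 47.1 and 46.8 FPKM in HSD and 51.4 and 60.9 in HFSD (0.25 ± 0.27, and 0.13 without HFSD replicate 2). All members lay between -0.167 and 0.246. Genes of cholesterol efflux, apolipoproteins and oxysterols had a median of 0.050, and 2 of 12 lay above both HSD retinas in both HFSD retinas and 2 below. The widest of them was APOD, a lipid carrier secreted by glia, at 18.4 and 21.9 FPKM in HSD and 31.8 and 37.9 in HFSD (0.76 ± 1.04), a gene that stood at 1.69 and 41 in the HFD retinas.

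Among genes of fatty acid synthesis, desaturation and elongation 14 of 20 were higher in HFSD, and 5 of 20 lay above both HSD retinas in both HFSD retinas and 1 below (median 0.050, 0.025 to 0.14 with each retina left out). ELOVL5, which lengthens polyunsaturated fatty acids, was at 16.1 and 16.8 FPKM in HSD and 20.7 and 20.9 in HFSD (0.32 ± 0.12). FADS2, the desaturase of the same pathway, was at 20.4 and 21.3 FPKM in HSD and 27.5 and 26.1 in HFSD (0.35 ± 0.16), and ELOVL6, which lengthens saturated fatty acids, was at 7.66 and 7.34 FPKM in HSD and 9.66 and 11.2 in HFSD (0.42 ± 0.25). None of the 3 overlapped. Of fatty acid oxidation and PPAR targets 2 of 28 lay above both HSD retinas in both HFSD retinas and 8 below (median -0.060, and -0.010 without HSD replicate 2). ACADL, which starts the oxidation of long-chain acyl-CoA, was at 5.23 and 8.44 FPKM in HSD and 4.14 and 3.39 in HFSD (-0.69 ± 0.23, and -0.39 without HSD replicate 2). BDH1, which interconverts the ketone bodies, was at 14.9 and 12.2 FPKM in HSD and 10.7 and 8.76 in HFSD (-0.44 ± 0.18), and PPARA, the nuclear receptor that drives these genes, was at 3.5 and 3.2 FPKM in HSD and 2.46 and 2.4 in HFSD (-0.34 ± 0.16). In lipid droplets and triglyceride turnover 2 of 15 lay above both HSD retinas in both HFSD retinas and 3 below (median -0.045), with HILPDA, a droplet protein induced by hypoxia, at 32.9 and 27.6 FPKM in HSD and 34.6 and 52 in HFSD and PLIN2, the coat protein of droplets, at 8.21 and 9.5 FPKM in HSD and 10.3 and 8.94 in HFSD, which overlapped.

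Retinoid and visual cycle genes, which supply and recycle the chromophore of the photoreceptors, had a median of -0.092 (-0.26 to -0.016 with each retina left out), and 3 of 26 lay above both HSD retinas in both HFSD retinas and 8 below. RBP4, the carrier of retinol in blood, was at 5.75 and 7.74 FPKM in HSD and 4.5 and 4.19 in HFSD (-0.52 ± 0.18, and -0.34 without HSD replicate 2). RXRG, a retinoid X receptor of cones, was at 7.28 and 10.2 FPKM in HSD and 12.5 and 15.2 in HFSD (0.62 ± 0.26, and 0.40 without HSD replicate 1). ALDH1A3, an enzyme that makes retinoic acid in the ventral retina, was at 11.9 and 13.9 FPKM in HSD and 8.76 and 5.61 in HFSD (-0.78 ± 0.76, and -0.50 without HFSD replicate 2). Of the 8 retinol metabolism genes that the study names, chosen on libraries that include these, 7 were tested, 4 higher and 3 lower. RPE65, the isomerase of the visual cycle, was at 18.9 and 13.7 FPKM in HSD and 25.6 and 12.1 in HFSD, against 119 and 74.6 in ND. RDH5, a retinol dehydrogenase of the pigment epithelium, was at 1.82 and 1.79 FPKM in HSD and 3.21 and 0.956 in HFSD and LRAT, which stores retinol as esters, at 0.349 and 0.58 FPKM in HSD and 0.609 and 0.155 in HFSD. HFSD and HSD overlapped in all 3, and HFSD replicate 1 was the higher of its pair. The wider lists of pigment epithelium genes (median -0.014, -0.32 to 0.22 with each retina left out) and of melanin and melanosome genes (-0.028) had no common direction.

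Photoreceptor genes differed little. In rods 1 of 18 lay above both HSD retinas in both HFSD retinas and 1 below, with a median of 0.007, and PDE6A, a catalytic subunit of the rod phosphodiesterase, was the lower one at 1063 and 1044 FPKM in HSD and 835 and 834 in HFSD (-0.34 ± 0.19). In cones 1 of 15 lay above both HSD retinas in both HFSD retinas and 6 below against the 16.2% of all genes, with a median of -0.086 (-0.19 to -0.079 with each retina left out). CNGA3, a subunit of the cone channel, was at 11.1 and 10.2 FPKM in HSD and 8.16 and 8.15 in HFSD (-0.34 ± 0.20), and ARR3, the cone arrestin, was at 450.5 and 476 FPKM in HSD and 397 and 403 in HFSD (-0.21 ± 0.15). RXRG, given above, was the cone member that lay higher.

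Further in, receptors for glutamate, GABA and glycine were mostly higher, 33 of 44, and 18 of 44 lay above both HSD retinas in both HFSD retinas and 2 below (median 0.14, 0.075 to 0.19 with each retina left out). The member with the lowest p lay against them, GRIN3A, a modulatory NMDA receptor subunit, at 27 and 26.7 FPKM in HSD and 19.2 and 13.5 in HFSD (-0.70 ± 0.21, and -0.47 without HFSD replicate 2). Bipolar cell genes had a median of 0.10 (0.009 to 0.13 with each retina left out), amacrine cell genes -0.009 and horizontal cell genes -0.033. Within these lists CALB2, the calcium-binding calretinin, was at 167 and 165 FPKM in HSD and 215 and 236 in HFSD (0.44 ± 0.19), and CALB1, calbindin, was at 39.2 and 35.9 FPKM in HSD and 47.3 and 48.9 in HFSD (0.35 ± 0.12). SST, the peptide somatostatin of a class of amacrine cells, was at 3.05 and 4.36 FPKM in HSD and 2.07 and 1.47 in HFSD (-0.76 ± 0.28), above the 0.778 and 0.136 of the ND retinas in both diets.

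For myelin genes and GFAP 1 retina, HFSD replicate 2, set the value. Myelin genes had a median of 0.45 over 17 members, which was -0.001 without HFSD replicate 2. For GFAP the log2 fold change was 2.68 ± 1.76 and 0.62 without HFSD replicate 2, and the ND retinas alone spanned 524 and 12.1 FPKM. Of the other 13 astrocyte and gliosis genes 6 lay above both HSD retinas in both HFSD retinas and 0 below (median 0.097), with AQP4, the water channel of glial endfeet, at 3.21 and 5.48 FPKM in HSD and 5.63 and 7.28 in HFSD. Müller glia genes had a median of -0.026, and 2 of 21 lay above both HSD retinas in both HFSD retinas and 6 below. Microglia and macrophage genes had a median of 0.12 (0.031 to 0.21 with each retina left out), and 4 of 17 lay above both HSD retinas in both HFSD retinas and 2 below, with SPP1, osteopontin, the most abundant of those at 242 and 217 FPKM in HSD and 292 and 286 in HFSD.

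Among the vascular lists, angiogenic factors had the highest median. Of 16 angiogenic factors 8 lay above in both HFSD retinas and 2 below, with a median of 0.14 (0.11 to 0.15 with each retina left out). Endothelial genes had a median of 0.024, mural cell genes 0.071 and genes of barrier and vascular transport -0.010. TFRC, the transferrin receptor, was at 55.7 and 45 FPKM in HSD and 65.5 and 70.2 in HFSD (0.43 ± 0.14, and 0.28 without HSD replicate 2), and TFR2, its relative, was at 0.85 and 1.86 FPKM in HSD and 3.38 and 2.6 in HFSD (0.79 ± 0.33, and 0.47 without HSD replicate 1), while iron handling genes as a list had a median of 0.020.

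For complement genes HSD replicate 2 set the direction of the list. Of the 8 that the study names, chosen on libraries that include these, 7 were tested and 6 were lower, with a median of -0.26 that was 0.020 without that library. C1S, a serine protease of the first complement component, was at 0.335 and 2.94 FPKM in HSD and 0.494 and 0.579 in HFSD, and C1R, its partner, was at 0.18 and 1.95 FPKM in HSD and 0.0178 and 0.719 in HFSD, so that a single HSD retina made the difference in both. C1QC, which microglia make, at 2.72 and 2.46 FPKM in HSD and 2 and 1.97 in HFSD, and F2R, the thrombin receptor, at 1.9 and 1.83 FPKM in HSD and 1.49 and 0.899 in HFSD, did not overlap. The wider list of complement and coagulation had a median of -0.15 and 0.007 without HSD replicate 2, and 0.070 without HFSD replicate 1. A like shift was seen for fibroblast genes, -0.41 with and 0.034 without it, and for collagens and extracellular matrix, -0.070 with and 0.11 without it. COL9A2, a cartilage-type collagen also made in the eye, differed in another way, at 84.3 and 80.6 FPKM in HSD and 60.5 and 42.7 in HFSD (-0.69 ± 0.28, and -0.44 without HFSD replicate 2). Blood genes summed to 3.27 and 44.9 in HSD and 3.19 and 21.1 in HFSD. The part of muscle, connective tissue and blood RNA in these values was not tested. Cytokines, chemokines and adhesion molecules (median -0.022) and interferon response and antigen presentation genes (-0.058) were near the median of all genes.

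The remaining lists had medians close to 0 or few members. Of the 36 lists whose median was under 0.1 in size, 25 changed sign when 1 retina was left out, so their directions rest on single retinas. Heat shock and unfolded protein genes had a median of 0.058, and in them DNAJA1, a cochaperone of HSP70, was at 62.3 and 56.9 FPKM in HSD and 83.3 and 108 in HFSD (0.67 ± 0.24) while BAG2, an inhibitor of the ubiquitin ligase CHIP, was at 75.7 and 72.2 FPKM in HSD and 55.8 and 53.7 in HFSD (-0.43 ± 0.10). Crystallin and lens genes had a median of -0.28 over 5 members (-0.72 to -0.29 with each retina left out). BMP and TGF-beta signalling genes had -0.062, thyroid hormone genes -0.063 and immediate early genes 0.022. In the thyroid list HR, the corepressor hairless, was at 26.9 and 27.6 FPKM in HSD and 21.2 and 21.4 in HFSD (-0.34 ± 0.12), and DIO3, which inactivates thyroid hormone, was at 8.29 and 4.03 FPKM in HSD and 1.23 and 1.93 in HFSD with a wide error (-1.42 ± 0.79). Medians were 0.044 for MAP kinase phosphatases, -0.019 for antioxidant defence, 0.025 for the circadian clock and 0.016 for ribosomal proteins. They were -0.008 for S100 proteins and annexins, 0.045 for carbonic anhydrases and nitrogen metabolism and -0.032 for genes of the dorsal and ventral retina.

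**Figure D5:**
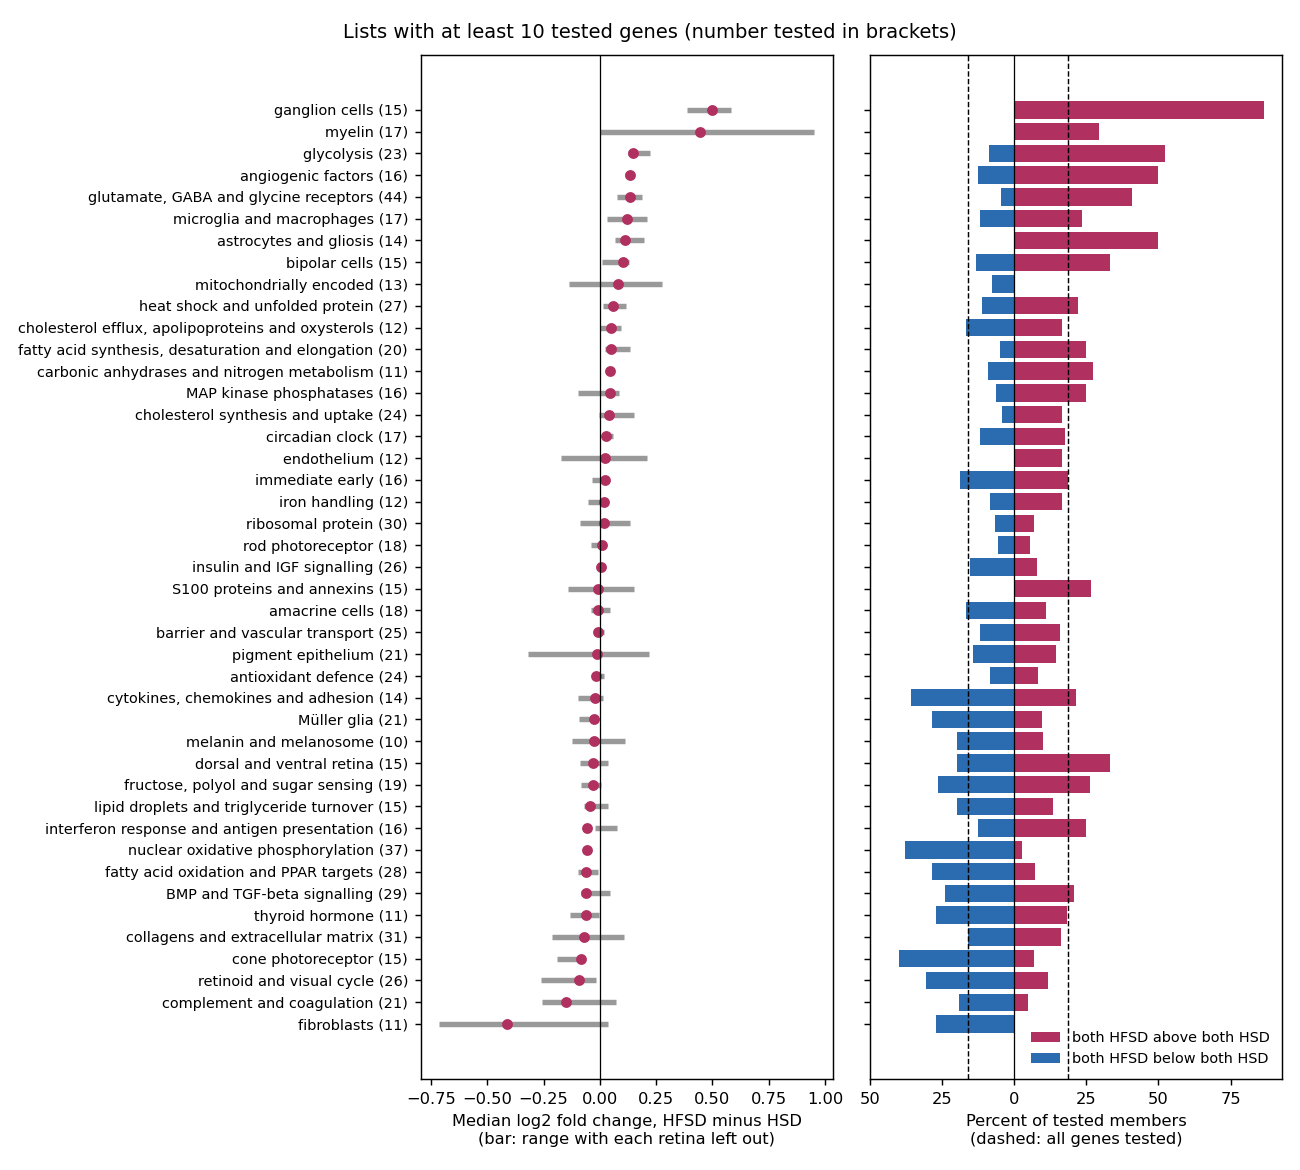
Lists with at least 10 tested genes, without the skeletal muscle list. The left panel gives the median log2 fold change of HFSD minus HSD (points) with its range when each retina is left out (bars), and the right panel the percent of members in which both HFSD retinas lay above (right) or below (left) both HSD retinas, with the 18.5% and 16.2% of all genes tested as dashed lines. Ganglion cell genes stand apart on the right, at 86.7%, and the bars of myelin and fibroblasts reach 0.

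Whether fat acted differently with sucrose than without was tested as the difference between HFSD minus HSD and HFD minus ND, which share no library. Of 12204 genes, 1 passed an adjusted p of 0.05 (0.00819%, limma with Benjamini-Hochberg adjustment), a gene without a symbol, and 456 had an unadjusted p under 0.05 (3.74%). That gene was at 256 and 240.3 FPKM in HSD and 259 and 298 in HFSD, and at 23.4 and 15.8 in ND and 349.6 and 251 in HFD, so that the ND retinas were the low ones and HFSD and HSD differed by only 0.16 ± 0.22. Its adjusted p in this test was 0.0489 and ran from 0.0329 to 0.39 over the alternatives (limma), above 0.05 with a pseudocount of 0.1, without the filter, with scaling, with the replicate block, without a trend, with voom and without HSD replicate 2, HFSD replicate 1 or HFSD replicate 2. HFSD minus HSD and HFD minus ND had the same sign in 47.6% of all genes tested and in 174 (51.9%) of the 335 with an unadjusted p under 0.05.

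Among genes with a symbol, those with the lowest p in this test did not pass the adjustment, and several had opposite signs in the comparisons. BAG2 was lower in HFSD than in HSD by -0.43, and its levels of 71.3 and 70.1 in HFD against 37 and 36.7 in ND gave 0.92. CRYBB2 had -1.67 with sucrose and 0.89 without, from 2.92 and 3.83 FPKM in ND to 6.06 and 8.23 in HFD. KCNG4 had -0.88 and 0.59, with 9.28 and 8.44 FPKM in ND and 12.2 and 15.6 in HFD. For SRGN, the proteoglycan core protein serglycin, HSD had 10.5 and 12.6, HFSD 6 and 8.29, ND 38.8 and 42.3 and HFD 59.3 and 62.4, which gave -0.63 and 0.58. STRA6, the cell surface receptor that takes up retinol, had 0.17 with sucrose and -1.59 without, at 0.388 and 0.315 FPKM in HSD and 0.864 and 0.237 in HFSD, and at 3.97 and 3.57 in ND and 0.493 and 0.688 in HFD. The study reports the retinol metabolism genes that it names as lower than ND in HFD, HSD and HFSD, on these same libraries. This choice alone favours a negative value for HFD against ND and a positive difference between the fat effects. The median of these genes was -0.88 for HFD against ND beside 0.033 for HFSD against HSD (-0.34 to 0.14 with each retina left out). Among them RDH5 had -2.02, LRAT -1.90 and RPE65 -2.26 for HFD against ND. The difference between these medians was not tested. Pigment markers of the same epithelium lay the same way for HFD against ND, with TYRP1 at -1.87 and PMEL at -1.81, while the whole list of pigment epithelium genes had 15 of 21 lower and a median of -0.11, and summed to 957 and 1155 FPKM in ND and 830.1 and 807 in HFD. The part of pigment epithelium RNA in the retinol genes was not tested. STRA6 reached 1 FPKM in the ND retinas only, and LRAT was under 1 FPKM in all HSD and HFSD retinas. In the test of the difference between the fat effects, STRA6, RDH5, LRAT and RPE65 did not pass the adjustment (limma). PRELP, given here for its low p above and not for this test, was higher under both additions of fat, by 1.28 and by 0.83, from 10.6 and 11.2 in ND to 17.6 and 22.8 in HFD.

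The study selects genes by the ratio of (FPKM + 1) between a diet and the control, below 0.65 or above about its inverse, without a test, and the same rule was applied to the means of the 2 retinas with HSD in the place of the control. Of 19293 protein-coding genes, 137 lay above (0.71%) and 273 below (1.42%). Of the 273, 65 belonged to the set apart in HSD replicate 2, and 208 did not. In 92 of the higher and 150 of the lower genes the retinas did not overlap, and 116 of the 410 had an unadjusted p under 0.05. In 119 of the 410, both means were under 2 FPKM. With each retina left out, 76 stayed past the same limit, 30 higher and 46 lower. Single retinas of the same diet differed by this rule in 904 genes between the HSD retinas and 612 between the HFSD retinas, within the range of 565 to 969 found between a retina of one diet and a retina of the other.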

How the data were processed

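Total RNA of whole retinas was sequenced in 8 libraries, 2 for each of 4 diets. The authors assessed the reads with FastQC, trimmed them and aligned them to the rabbit genome with TopHat2. Reads with more than 1 location were discarded, and the authors deposited FPKM per gene for each library. The genome build and the annotation are not given in the sources used here, so genes are given by symbol, and no coordinates or sequences are printed. The table has 25666 rows, and 5996 of its 19293 protein-coding rows lack a symbol.

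The FPKM of a gene moves in steps of 1 fragment. Gene lengths and library depths were recovered from these steps, and 100% of values above 0 came out whole within 1e-05 fragments and rounding. Depth limits precision at low levels, since 1 fragment on 1000 bases gives between 0.0439 and 0.0634 FPKM in the 4 libraries.

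Groups were taken from the diet labels. The 12204 protein-coding genes that reached 1 FPKM in 2 or more of the 8 libraries were tested on log2(FPKM + 1) with limma 3.58.1 in R 4.3.3, with moderated variances and a mean-variance trend, in 1 model of the 4 diets with 4 residual degrees of freedom. Fold changes on this scale understate those of low genes. P-values are two-sided and adjusted by the Benjamini-Hochberg method over all genes tested, and an adjusted p under 0.05 was called. The contrast was HFSD minus HSD, and ND and HFD entered its spread and the filter on low values only. Its difference from HFD minus ND was tested in the same model. The fit was tested on simulated data.

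Lists are described by counts and medians, without a set test. Their members, the lists and the comparison were chosen with earlier results of these data known. Genes were named by rule: the 15 largest log2 fold changes each way among genes with a symbol, an unadjusted p under 0.05, no overlap and outside the set of HSD replicate 2, list members that met the same limits, the first 4 found of a list, MYL1, ACTA1, CKM and the 5 highest of that set, the 8 retinol and 8 complement genes of the study, and the 5 with the lowest p in the test of the difference. Some genes this rule names are not reported here. Other list members were named after their values were seen. Alternatives were another pseudocount (0.1), no filter, a filter of 5 FPKM, median-ratio scaling, the 4 libraries alone, a replicate block, variances without trend or robust, voom on recovered fragments, the set apart removed, and each retina left out.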

Additional observations from a re-analysis of the deposited data

Results flagged for a closer look

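A gene without a symbol was picked out because its response to fat differed between the diets with and without sucrose, by -3.71 ± 0.31 on the log2 scale (SE, limma, adjusted p = 0.0489 by the Benjamini-Hochberg method). It stood at 256 and 240.3 FPKM in HSD and at 259 and 298 in HFSD, against 23.4 and 15.8 in ND and 349.6 and 251 in HFD. The 2 ND retinas were the low ones, and HFSD and HSD differed by only 0.16 ± 0.22 on the log2 scale, less than its error. The call was lost with a pseudocount of 0.1 (adjusted p = 0.0502), without the filter (0.14), with scaling (0.053), with the replicate block (0.074), without a trend (0.11), with voom (0.054) and without HSD replicate 2 (0.39), HFSD replicate 1 (0.22) or HFSD replicate 2 (0.10), all by limma. No gene without a symbol could be given a name here. Groups of 2 retinas were too small for a test of single outlying values. The retinas that stood apart above were described by their values only.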

How the results depend on the processing

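No gene passed an adjusted p of 0.05 between HFSD and HSD under most alternatives. The exceptions were the fit on the 4 libraries alone, which called 1 gene higher (without a symbol, log2 fold change 3.54, adjusted p = 0.0188 by limma), and the fits with 1 retina left out, which called 0 to 1 higher and 0 to 10 lower. All 10 came without HSD replicate 1, where HSD replicate 2 stands alone and is assumed to vary like the others, and they were muscle genes such as ATP2A1, TCAP and TPM2. At an unadjusted p under 0.05 the counts were 225 higher and 299 lower without a filter, 299 and 342 with the 4 libraries alone, and 94 to 205 higher and 146 to 216 lower with a retina left out, the fewest higher without HFSD replicate 2. For the difference between the fat effects, 0 genes passed with a pseudocount of 0.1, without a filter, with scaling, with the replicate block, without a trend and with voom, and 0 to 10 with a retina left out, while unadjusted counts ran from 291 (without HFSD replicate 2) to 460 with a retina left out and from 371 (filter of 5 FPKM) to 678 (without a filter) otherwise. By the fold rule, 683 genes were higher and 985 lower with a pseudocount of 0.1, 86 and 103 with the filter of 5 FPKM, and 169 to 289 and 198 to 447 with a retina left out. The cause was not tested.

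With the replicate number as a block, 142 genes were higher and 187 lower at an unadjusted p under 0.05, 0 passed the adjustment, and the difference of fat effects gave 429 unadjusted. Deviations of same-numbered retinas from their diet means correlated by 0.08 between HSD and HFSD and by -0.16 to 0.06 between the other pairs of diets, so the retinas share only a number.

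Of the medians of the lists that were at least 0.1 in size, those that turned with a retina left out ran from -2.62 to 0.031 for skeletal muscle, -0.30 to 0.020 for complement of the study, -0.71 to 0.034 for fibroblasts and -1.32 to 1.09 for blood (2 genes), highest without HSD replicate 2, from -0.0012 (without HFSD replicate 2) to 0.95 for myelin, and from -0.26 to 0.070 for complement and coagulation, highest without HFSD replicate 1 and 0.007 without HSD replicate 2. Of the single genes named in the text, the log2 fold change turned without HSD replicate 2 for TCAP (-3.35 to 0.057), TPM2 (-2.84 to 0.11), ID3 (-1.97 to 0.41), SERPING1 (-0.30 to 0.024), C1S (-1.36 to 0.20) and C1R (-1.16 to 0.16), without HFSD replicate 2 for MBP (-0.064 to 3.03), ISL2 (-0.054 to 0.25) and OPN4 (-0.025 to 0.70), without HFSD replicate 1 for STRA6 (-0.13 to 0.46) and RDH5 (-0.52 to 0.59, and -0.027 with a pseudocount of 0.1), without HSD replicate 2 or HFSD replicate 1 for RPE65 (-0.39 to 0.63), and without HSD replicate 2 or HFSD replicate 2 for LRAT (-0.34 to 0.14). TYRP1 (-1.07 to 1.04) and PMEL (-0.96 to 0.81) also turned, without HSD replicate 1 or HFSD replicate 2. Scaling moved the median of all genes from 0.0083 to 0.0003. With 2 retinas a diet and a median standard error of 0.17, small differences were not detectable.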
